A study of Mus musculus with 22 samples.

Results

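The Notch receptors, ligands and targets examined here were 10 mouse genes read by 19 probe sets, of 18193 genes and 45037 probe sets in all. The members were named as a list, 4 receptors (Notch1, Notch2, Notch3, Notch4), 4 ligands (Dll1, Dll4, Jag1, Jag2) and 2 target genes (Hes1, Hey1), and every probe set annotated to one of these symbols was taken. Messenger RNA was measured on 22 arrays. There were 3 samples of A2C12 side population cells titled as treated with antibody against EpCAM, 3 samples of untreated A2C12 side population cells, and 16 samples of normal lung from C57BL/6 mice without transgenes, 8 of them labelled male and the other 8 female. A2C12 comes from a lung tumour of a C57BL/6 mouse transgenic for both c-myc and c-raf. Its side population is the fraction that keeps the dye Hoechst (5 µg/ml for 90 min) out and was sorted on that basis. All 6 cell samples come from this single line, no unsorted cells of it were analysed here, and the labels used here give neither the age of the mice nor the promoter that drove the transgenes. The protocol gives a monoclonal anti-mouse EpCAM antibody, 100 µg/ml for 48 h, in the same words for all samples, lung included, so treated and untreated cells are told apart by their titles alone, and whether reserpine, a blocker of dye efflux, was present during sorting is not settled. The labels call the samples of a group biological replicates.

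Notch receptors are membrane proteins that are activated by ligands on a neighbouring cell. Ligand binding lets ADAM10 and then the gamma-secretase complex cut the receptor, and the released intracellular part moves to the nucleus, where it binds RBPJ and switches on genes such as Hes1 and Hey1, which encode transcriptional repressors. In lung, Notch signalling is known for choosing between secretory and ciliated airway fates and for shaping blood vessels, where Dll4 and Notch4 are best known from endothelium and Notch3 from the pericytes and smooth muscle around it.

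On the brightest probe set of each gene, 3 of 4 receptors and 2 of 4 ligands were at least 2-fold lower than in lung in both cell groups. Using brightest sets favoured a fall, and 23.9% of all tested genes fell in antibody-treated and 23.8% in untreated cells. Of the targets, 1 was higher and the other lower, and the antibody changed no measured member past the test. Notch4 and Dll1 were lowest relative to lung, with log2 changes of -4.47 and -3.67 in antibody-treated cells and -4.48 and -4.19 in untreated cells. Notch2, Jag1 and Jag2 changed by less than 2-fold on their brightest probe sets. Another Jag1 set rose by 1.57 in antibody-treated and 1.59 in untreated cells. Hes1 was higher in cells by 1.14 in both comparisons, while Hey1 changed by -1.72 in antibody-treated and -1.75 in untreated cells. All log2 changes are differences of quantile normalized log2(intensity + 16), a scale that understates changes of dim probe sets, and adjusted p are those of limma over all probe sets tested.

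The arrays carried differences besides those named by the groups. The lung arrays labelled male 3 and male 4 went against their label, with Xist at 1510 to 1580, as on the 8 female arrays (1220 to 1950), and the Y-linked Uty at 8.27 and 9.46, where the other 6 male-labelled arrays read 722 to 1250. Pooled lung uses both sexes, and every member call against lung was the same without these 2 arrays. Lung arrays numbered 5 to 8 of both sexes lay together on the first principal component of lung (28.8% of the variance), apart from those numbered 1 to 4. The labelling control dap read 438 to 761 on cell arrays and at most 3.70 on lung arrays, so handling that differs in this control and sample type cannot be told apart. Of 9 epithelial markers 8 fell against lung in both cell groups, and Epcam, which encodes the antibody's target, Krt7, Cldn3 and Cldn7 lay below the 40th percentile of the array on all 6 cell arrays. These 4 were bright enough to test only through lung, which favoured a fall. Krt19 did not pass, at means of 1559 in antibody-treated cells, 1732 in untreated cells and 2072 in lung. Krt8 fell but averaged 286 in antibody-treated and 267 in untreated cells, against 2880 in lung. Cdh1 fell too, to 139 in antibody-treated and 107 in untreated cells, against 3055 in lung. Over all genes tested, 23.9% fell in antibody-treated and 23.8% in untreated cells.

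For each cell group against lung, the question was how far a dye-excluding tumour fraction kept the Notch transcripts of normal lung. A probe set passed with an adjusted p under 0.05 and a change of at least 2-fold. Of the 18 member probe sets bright enough to test in antibody-treated cells against lung, 9 fell and 2 rose, while 19.6% of all tested probe sets fell and 19.8% rose. In untreated cells 10 fell and 2 rose, where 19.6% of all tested probe sets fell and 20.1% rose. Cell and lung arrays lay apart for 11 member sets below lung and 2 above in antibody-treated cells, where 32.2% and 26.8% of all tested sets did, and for 11 below and 3 above in untreated cells, where 32.5% and 28.9% did. Without normalization the share of called sets that were higher in untreated cells was 40.3%, against 50.6% as reported, and the median change of all sets was -0.04, against 0.145 as reported. With median centring these were 55.2% and 0.23. Leaving out 1 untreated array gave medians of 0.055 to 0.058 and shares of 44.5% to 44.6%, with fewer sets meeting the filter on 3 arrays (30506 to 30515, against 32533). Leaving out 1 antibody-treated array likewise gave medians of 0.032 to 0.055 in that comparison, against 0.125 as reported. Counting only the brightest set of each gene, 6 of 10 fell and 1 rose in both comparisons, where 23.9% of genes fell and 17.2% rose in antibody-treated cells and 23.8% and 17.8% in untreated cells. The median change of these 10 sets was -1.72 in antibody-treated and -1.71 in untreated cells, where the median over all genes was -0.01 and 0.01. The brightest set was chosen by its mean over all arrays, most of them lung. This choice favoured sets high in lung and hence a fall, for the members and for all genes alike. The counts and medians of brightest sets are therefore a description. Both comparisons used the same 16 lung arrays, so they are not independent. Of the member sets that fell, 4 of 9 in antibody-treated and 5 of 10 in untreated cells met the filter on dim sets only through their lung values, so their inclusion favoured a fall and the counts are a description. These were Notch4 1449146_at, Dll4 1421826_at and Jag2 1426431_at in both comparisons, Dll4 1421827_at in antibody-treated cells, and Dll1 1419204_at and Notch3 1421964_at in untreated cells.

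**Figure D1:**
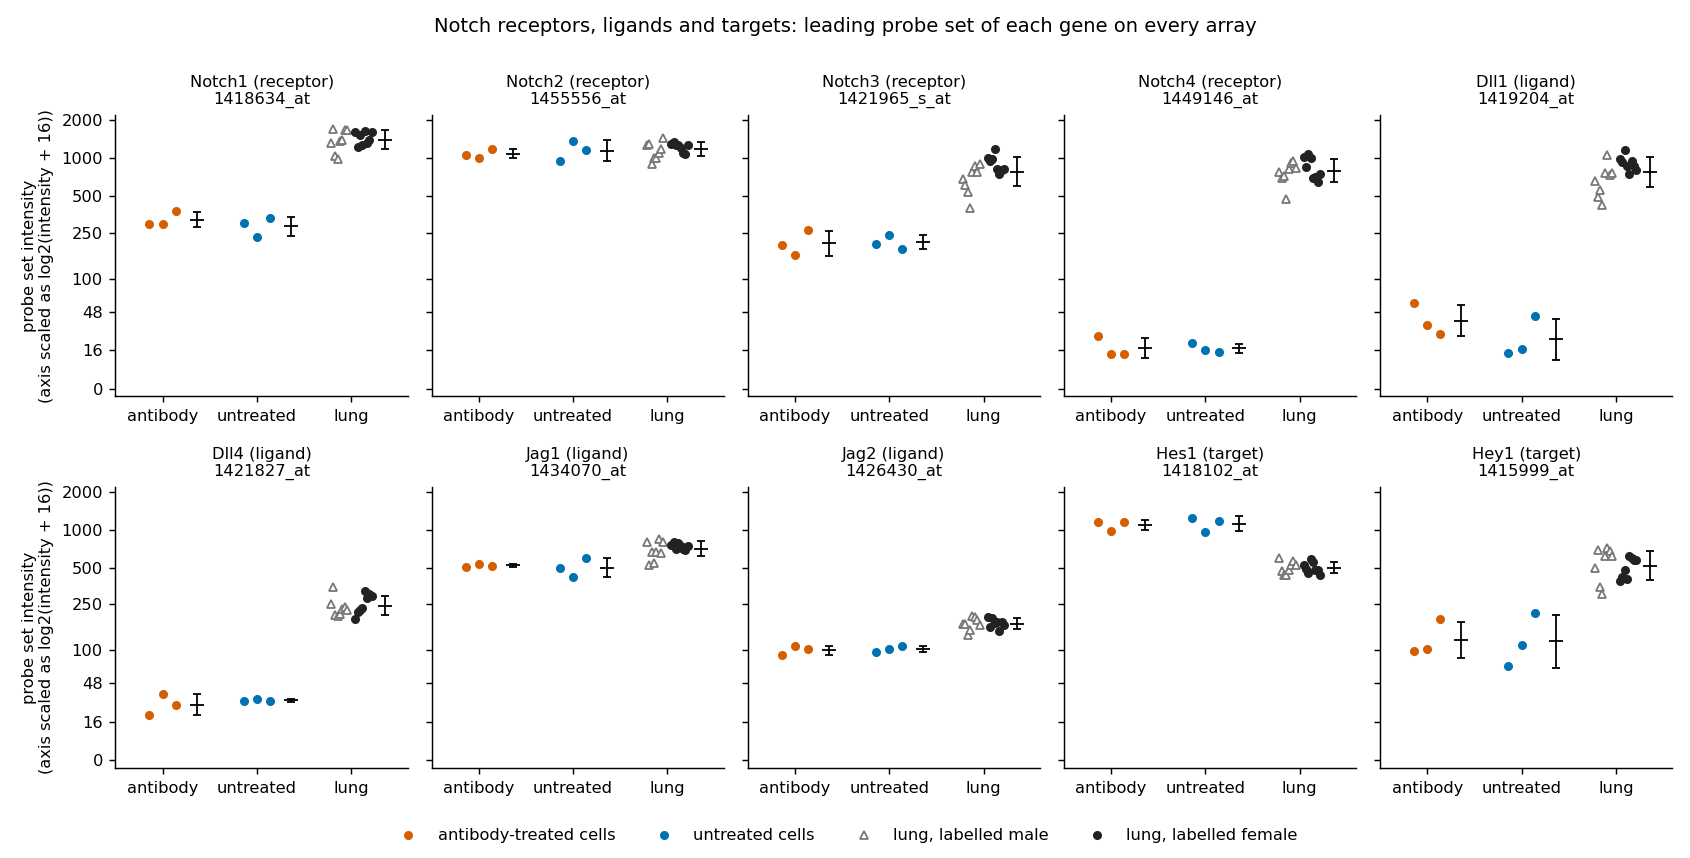
Intensity of the brightest probe set of each gene (vertical axis, scaled as log2(intensity + 16)) on every array, by group from left to right; bars give the mean and SD of the scaled values. Notch4 read 13.8 to 25.4 on the 6 cell arrays and 472 to 1085 on the 16 lung arrays, Notch2 overlapped between the groups, and Hes1 was above lung on all 6 cell arrays.

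Notch4, an endothelial receptor, was nearly without signal in the cells. Its brightest probe set (1449146_at) read 25.4, 13.9 and 13.8 in antibody-treated cells and 20.2, 16.1 and 15.1 in untreated cells, while the lung arrays ran from 472 over a median of 800 to 1085. Every cell array was below every lung array. Means were 17.7 ± 6.69 for antibody-treated and 17.2 ± 2.70 for untreated cells (SD, n = 3 each), against 811 ± 160 for lung (SD, n = 16), and the log2 changes were -4.47 ± 0.16 (SE; limma adjusted p = 9.04e-18) in antibody-treated and -4.48 ± 0.16 (SE; limma adjusted p = 8.31e-18) in untreated cells. Only 1.7% and 1.8% of all tested probe sets had a lower change in the antibody-treated and untreated comparisons. In lung, the other Notch4 sets were dim too. Set 1436901_at read at most 49.7 on any lung array and 1456263_at at most 31.6, the first did not pass the test (-0.30 in antibody-treated and -0.44 in untreated cells) and the second was too dim to be tested.

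Notch1, the receptor best known from lymphocytes and vessels, was lower in the cells, but bright enough on all 6 of their arrays to pass the filter on dim sets. Set 1418634_at read 298, 294 and 376 in antibody-treated cells and 299, 229 and 328 in untreated cells, against 990, 1402 and 1695 as the lowest, median and highest lung values. The groups did not overlap, and the changes were -1.99 ± 0.145 in antibody-treated and -2.15 ± 0.145 in untreated cells (SE; limma adjusted p = 6.48e-12 and 1.51e-12). The second set, 1418633_at, read 81.5, 58.7 and 116 in antibody-treated cells, 49.2, 50.1 and 71.2 in untreated cells and 145 to 293 in lung. It too was below lung on all cell arrays. It fell by 1.25 on the log2 scale in untreated cells (limma adjusted p = 5.32e-07), and its change of -0.82 in antibody-treated cells did not reach 2-fold.

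Notch3, the receptor of vascular smooth muscle and pericytes, fell on both of its sets. Set 1421965_s_at, of a type that can match several transcripts, read 197, 162 and 264 in antibody-treated cells, 201, 240 and 184 in untreated cells, and 400, 817 and 1186 as the lowest, median and highest in lung. The second set, 1421964_at, read 34.2, 29.2 and 45.7 in antibody-treated cells, 18.9, 27.8 and 19.7 in untreated cells and 139 to 423 in lung. On neither set did cells and lung overlap. The changes were -1.71 ± 0.16 and -1.68 ± 0.16 on the first and -2.22 ± 0.18 and -2.72 ± 0.18 (SE) on the second, in antibody-treated and untreated cells, with limma adjusted p of at most 8.57e-10. Lung arrays differed among themselves by up to 2.96-fold on the first set and 3.05-fold on the second.

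Notch2, a broadly expressed receptor, was the receptor whose brightest set gave no detectable difference from lung. Set 1455556_at read 1070, 1007 and 1194 in antibody-treated cells, 954, 1383 and 1163 in untreated cells and 905 to 1450 in lung. The groups overlapped, and the log2 differences were -0.13 (95% interval -0.37 to 0.12) in antibody-treated and -0.06 (95% interval -0.31 to 0.19) in untreated cells. These intervals lie within 2-fold on either side, and the sign turned positive with median centring of the arrays (0.15 in antibody-treated and 0.23 in untreated cells). The dim set 1451889_at, at 33.2 to 66.1 in cells and 26.2 to 59.4 in lung, differed by 0.33 in antibody-treated and 0.50 in untreated cells and did not pass.

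Among the member ligands, the Delta-like genes Dll1 and Dll4 fell and the Jagged genes moved less. Dll3, a Delta-like gene outside the member list, was higher by 0.60 in antibody-treated and 0.805 in untreated cells, under 2-fold. Dll1, a ligand of the Delta class, read 58.4, 34.5 and 27.0 in antibody-treated cells, 14.5, 16.7 and 43.3 in untreated cells and 425, 788 and 1172 as the lowest, median and highest in lung. All cell arrays were far below all lung arrays, although they varied among themselves. The changes were -3.67 ± 0.20 in antibody-treated and -4.19 ± 0.20 in untreated cells (SE; limma adjusted p = 1.86e-14 and 1.35e-15), the second for a set that only 1 of 3 untreated arrays read above the filter. Dll4, the ligand of arterial and sprouting endothelium, fell on both sets. Set 1421827_at read 19.9, 36.6 and 27.5 in antibody-treated cells, 30.8, 32.6 and 30.2 in untreated cells and 189, 230 and 346 as the lowest, median and highest in lung. The second set, 1421826_at, read at most 5.93 in antibody-treated cells, at most 6.41 in untreated cells and 85.1 to 199 in lung. Neither set overlapped between cells and lung. The changes of the first set were -2.35 ± 0.16 in antibody-treated and -2.23 ± 0.16 in untreated cells (SE; limma adjusted p = 3.31e-12 and 8.37e-12), and those of the second -3.02 in antibody-treated and -2.84 in untreated cells. For the second set the size hangs on the offset of 16, with -5.87 in antibody-treated and -5.03 in untreated cells for an offset of 1 and -1.56 in antibody-treated and -1.51 in untreated cells for an offset of 64.

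The stretches around the starts of Notch4, Dll4 and Dll1 are shown because these 3 members had the largest falls against lung in these same data. They run from 250 bases before to 50 bases after the start, 5′ to 3′ on the gene's strand, as given by RefSeq for mouse build GRCm38.p6. For Dll1 the farther upstream of its 2 listed starts is shown. Capitals mark matches to the N-box CACNAG, a site of HES family repressors, and to the AP-1 motif TGACTCA.
Notch4 (chr17:34564045-34564344, + strand): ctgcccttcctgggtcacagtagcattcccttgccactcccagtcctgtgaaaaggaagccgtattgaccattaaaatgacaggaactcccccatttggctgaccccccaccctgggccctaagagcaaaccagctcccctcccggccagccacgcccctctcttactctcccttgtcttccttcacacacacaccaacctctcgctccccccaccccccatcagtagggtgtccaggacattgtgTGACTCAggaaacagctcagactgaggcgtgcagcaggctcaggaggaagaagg
Dll4 (chr2:119325534-119325833, + strand): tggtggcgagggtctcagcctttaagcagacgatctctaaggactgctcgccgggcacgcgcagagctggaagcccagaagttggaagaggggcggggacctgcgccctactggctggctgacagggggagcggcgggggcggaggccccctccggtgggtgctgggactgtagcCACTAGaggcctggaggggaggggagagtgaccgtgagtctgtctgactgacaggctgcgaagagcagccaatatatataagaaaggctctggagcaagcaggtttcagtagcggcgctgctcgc
Dll1 (chr17:15376883-15377182, - strand): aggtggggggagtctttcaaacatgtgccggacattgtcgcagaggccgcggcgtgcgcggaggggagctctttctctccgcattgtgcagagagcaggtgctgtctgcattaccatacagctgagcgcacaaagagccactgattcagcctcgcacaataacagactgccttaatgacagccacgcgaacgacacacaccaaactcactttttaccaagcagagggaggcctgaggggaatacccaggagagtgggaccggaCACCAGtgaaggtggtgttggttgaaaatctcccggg
The RBPJ motif TGGGAA, and so its longer form GTGGGAA, was not found on either strand of these 3 stretches, nor in the other 6 stretches listed for members; 8 of the 10 genes had a listed sequence, and Hes1 and Hey1 did not. TGGGAA occurs in 25.6% of the 32851 stretches of the same length in the table, and the E-box CACGTG (7.2%) and the TATA box TATAAA (13.6%) were likewise not found in those of the members. The N-box, present in 42.5% of all, was found in 5 of the 9 stretches of members, those of Notch1, Notch2, Notch3, Dll4 (from 75 bases before the start) and the shown one of Dll1. The AP-1 motif, searched after the sequences had been read, occurs in 5.2% of all and once in Notch4, from 4 bases before the start. A match of letters is not a bound site, and a missing match says only that these letters are not in this window.

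Jag1, a ligand of the Jagged class, was read differently by its 3 probe sets. The brightest, 1434070_at, read 505, 539 and 518 in antibody-treated cells, 493, 421 and 602 in untreated cells and 522, 730 and 853 as the lowest, median and highest in lung. Cells and lung overlapped, and the changes of -0.37 in antibody-treated and -0.44 in untreated cells did not reach 2-fold. Set 1421106_at went the other way, with 118, 150 and 112 in antibody-treated cells, 93.8, 132 and 159 in untreated cells and 28.9 to 71.6 in lung. All cell arrays were above all lung arrays on this set, which rose by 1.57 ± 0.15 in antibody-treated and 1.59 ± 0.15 in untreated cells (SE; limma adjusted p = 1.28e-09 and 1.08e-09). The third set, 1421105_at, read 36.3 to 80.4 in cells and 29.0 to 48.1 in lung, with changes of 0.65 in antibody-treated and 0.88 in untreated cells that did not reach 2-fold. Which parts of the Jag1 transcript the sets match was not used here. The direction for Jag1 as a gene is therefore not settled by these arrays.

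**Figure D2:**
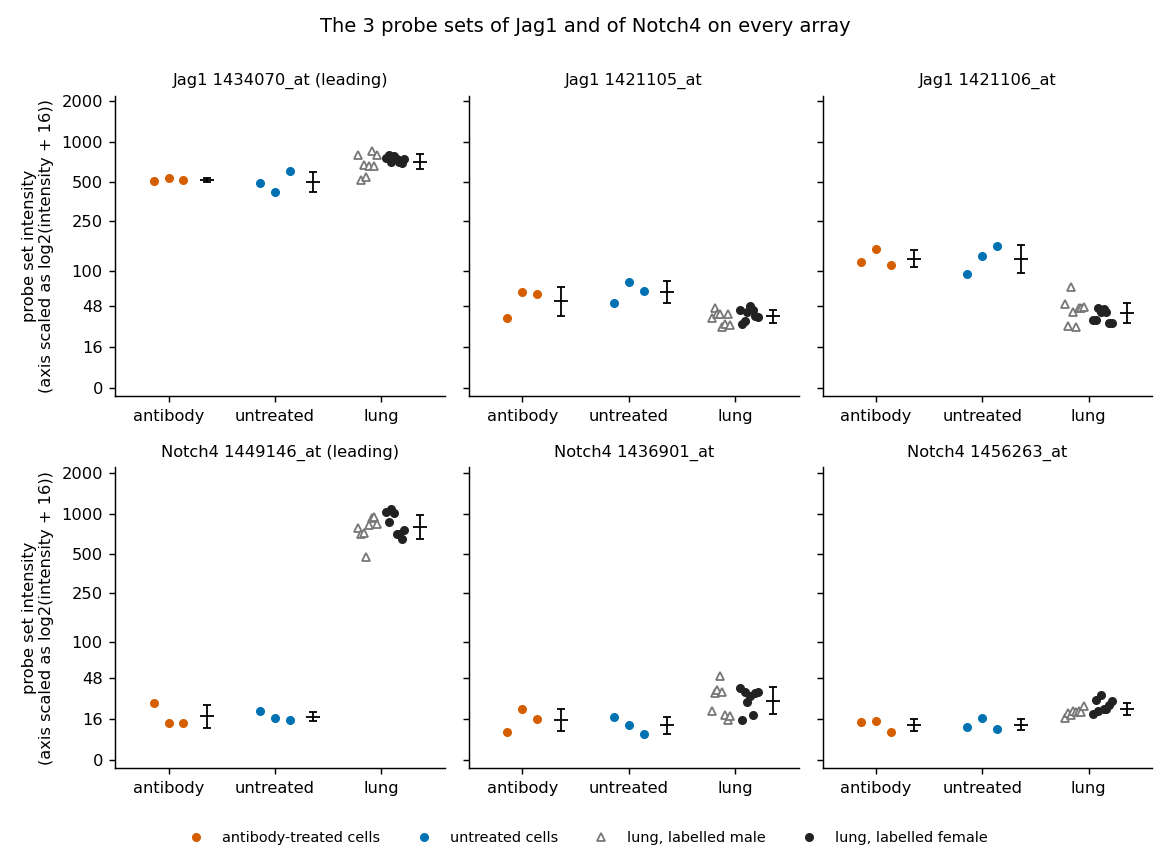
Intensity (vertical axis, scaled as log2(intensity + 16)) of the 3 probe sets of Jag1 and of Notch4 on every array; bars give the mean and SD of the scaled values. For Jag1 the brightest set was lower in cells than the lung median on all 6 arrays while 1421106_at was above lung, and for Notch4 1 set carried the lung signal.

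Jag2, the second Jagged ligand, was lower in cells on both sets, past 2-fold on 1 of them. Set 1426430_at read 90.3, 109 and 103 in antibody-treated cells, 97.2, 104 and 110 in untreated cells and 138, 174 and 199 as the lowest, median and highest in lung. The groups did not overlap, but the changes of -0.42 in antibody-treated and -0.36 in untreated cells stayed under 2-fold. Set 1426431_at read 9.95 to 22.2 in antibody-treated cells, 12.3 to 13.3 in untreated cells and 57.5 to 145 in lung. It fell by 1.67 in antibody-treated and 1.83 in untreated cells on the log2 scale (limma adjusted p = 1.24e-08 and 2.51e-09), from a dim level, and an offset of 64 reduced these changes to -0.94 in antibody-treated and -1.01 in untreated cells.

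The target genes parted. Hes1, a repressor that opposes differentiation in many tissues, read 1150, 983 and 1164 in antibody-treated cells and 1246, 960 and 1188 in untreated cells, against 435, 484 and 600 as the lowest, median and highest in lung. All cell arrays were above all lung arrays. Hes1 rose by 1.14 ± 0.10 in each comparison (SE; limma adjusted p = 1.20e-10 and 1.07e-10), and its lung values were the tightest of all 19 member sets, with a highest value 1.38 times the lowest. A total of 83.6% of tested probe sets had a lower change in either comparison. Hey1, a related repressor known from heart and vessels, read 98.4, 103 and 188 in antibody-treated cells, 71.6, 112 and 211 in untreated cells and 306, 578 and 718 as the lowest, median and highest in lung. Cells and lung did not overlap, and replicate 3 was the highest of its group in both cell groups. Hey1 changed by -1.72 ± 0.24 in antibody-treated and -1.75 ± 0.24 in untreated cells (SE; limma adjusted p = 4.34e-07 and 3.44e-07). On lung arrays numbered 1 to 4 its median was 412 and on those numbered 5 to 8 it was 622, and it passed against each of these sets of arrays alone (against arrays 1 to 4 by -1.53 in antibody-treated and -1.55 in untreated cells, against arrays 5 to 8 by -1.97 in antibody-treated and -1.995 in untreated cells).

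**Figure D3:**
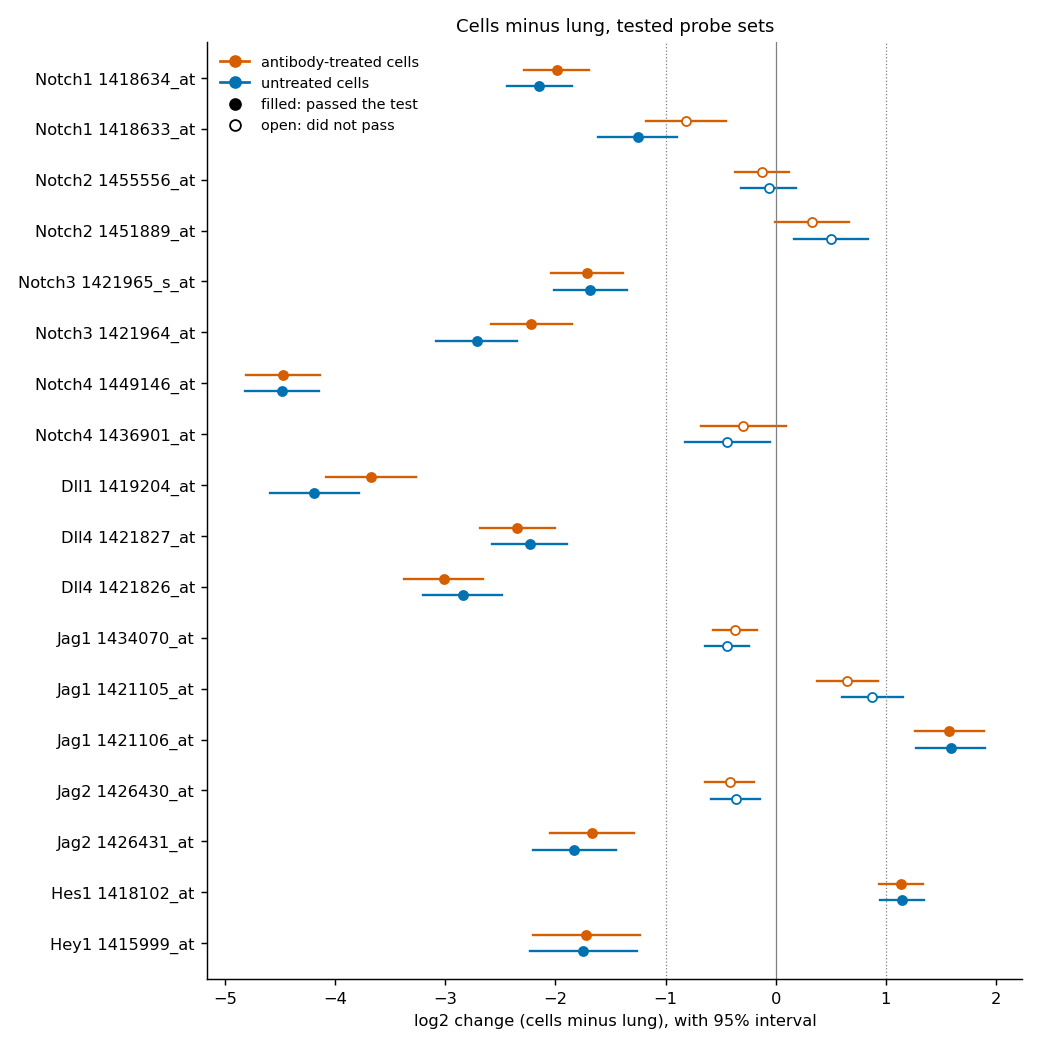
Log2 change of each tested member probe set (rows) in antibody-treated and untreated cells relative to lung, with limma's 95% interval; filled points passed the test and dotted lines mark 2-fold. The brightest Notch4 set lies at -4.47 and -4.48, Hes1 at 1.14 in both, and the sets of Jag1 lie on both sides of 0.

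Lung is a mixture of cell types, and in such bulk samples fewer cells of a type and less RNA per cell cannot be told apart. Most markers of the other cell types fell too. They were read on brightest sets, and many met the filter on dim sets only through lung. Both choices favoured a fall, so the marker counts are a description. Of all genes tested, 23.9% fell in antibody-treated and 23.8% in untreated cells. All 16 endothelial markers fell in both comparisons, and their summed intensity was 280 to 366 in antibody-treated cells, 283 to 347 in untreated cells and 22144 to 41152 in lung. Of these, 13 lay below the 40th percentile of the array on all 6 cell arrays, and Cdh5, Tie1, Robo4 and Erg read under 10 throughout. Of 6 arterial endothelial markers 5 were tested and fell, with sums of 427 to 728 in antibody-treated cells, 506 to 583 in untreated cells and 2203 to 5278 in lung. Of 10 mural cell markers, those of pericytes and smooth muscle, 7 fell and 1, Rgs5, rose by 2.02 in antibody-treated and 2.03 in untreated cells, with sums of 5508 to 7402 in antibody-treated cells, 5354 to 7191 in untreated cells and 7863 to 15804 in lung. The mural genes Cspg4, Kcnj8, Abcc9 and Myh11 read under 10 on all cell arrays, while the smooth muscle actin gene Acta2 averaged 4341 ± 697 in antibody-treated cells, 3790 ± 988 in untreated cells (SD, n = 3 each), against 5433 ± 791 in lung (SD, n = 16). The pericyte gene Pdgfrb averaged 999 ± 148 in antibody-treated cells, 1022 ± 193 in untreated cells and 1291 ± 237 in lung. Neither Acta2 nor Pdgfrb passed the test. All 12 measured leukocyte markers fell, with sums of 71.5 to 89.2 in antibody-treated cells, 39.4 to 81.8 in untreated cells and 11899 to 17364 in lung. All 6 club cell markers fell, with sums of 57.6 to 82.9 in antibody-treated cells, 18.1 to 64.8 in untreated cells and 44141 to 59669 in lung. Of 8 ciliated cell markers 7 fell, with sums of 81.0 to 97.0 in antibody-treated cells, 75.6 to 86.4 in untreated cells and 945 to 2629 in lung. Of 9 measured alveolar markers 8 fell, with sums of 2060 to 2151 in antibody-treated cells, 1944 to 2348 in untreated cells and 46028 to 63399 in lung. The other, Pdpn, averaged 1255 ± 135 in antibody-treated cells, 1335 ± 279 in untreated cells and 1753 ± 176 in lung. The part of these cells in the falls of Notch4, Dll4, Dll1, Notch1, Notch3 and Hey1 was not tested.

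Of 65 other genes of the pathway with a probe set, 63 were tested on their brightest set, a choice that favoured a fall. In antibody-treated cells 6 rose, 17 fell and 40 did not pass, where 17.2% of all genes tested rose and 23.9% fell. In untreated cells 7 rose, 17 fell and 39 did not pass, where 17.8% of all genes tested rose and 23.8% fell. The median change of the 63 genes was -0.20 in antibody-treated and -0.29 in untreated cells. Of the falls, 8 of 17 in antibody-treated and 9 of 17 in untreated cells met the filter on dim sets only through lung (Lfng, Mfng, Rbpjl, Dtx1, Mfap2, Mfap5, Hey2 and Heyl in both, Egfl7 in untreated cells), so these counts too are a description. Every gene of these lists that passed is named below, with its log2 change from lung in each cell group.

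Fringe glycosyltransferases, which add sugars to Notch and so tune its response to Delta and Jagged ligands, split within the family. Of 5 glycosylation genes 2 fell and 0 rose in both comparisons. Lfng averaged 14.4 ± 5.83 in antibody-treated cells and 20.8 ± 6.08 in untreated cells (SD, n = 3 each) and 456 ± 219 in lung (SD, n = 16), and Mfng averaged 7.06 ± 3.76 in antibody-treated cells, 5.82 ± 3.77 in untreated cells and 289 ± 58.8 in lung. Lfng changed by -3.71 in antibody-treated and -3.40 in untreated cells, and Mfng by -3.58 in antibody-treated and -3.66 in untreated cells. Rfng, the third Fringe gene, averaged 430 ± 47.7 in antibody-treated cells, 445 ± 39.1 in untreated cells and 305 ± 45.8 in lung, and its differences of 0.61 in antibody-treated and 0.65 in untreated cells stayed under 2-fold, as did those of Pofut1 and Poglut1, whose enzymes add the first sugars.

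Among genes of receptor cleavage, Adam10, whose protease makes the first ligand-induced cut, rose by 1.03 in both comparisons and averaged 3048 ± 353 in antibody-treated cells, 3058 ± 309 in untreated cells (SD, n = 3 each) and 1424 ± 173 in lung (SD, n = 16). The gamma-secretase subunit genes Aph1a (-1.24 antibody-treated, -1.32 untreated) and Ncstn (-1.09 antibody-treated, -1.05 untreated) fell, and 5 of the 8 cleavage genes tested did not pass. In the nuclear complex, Rbpj, the DNA-binding partner of cleaved Notch, averaged 894 ± 285 in antibody-treated cells, 904 ± 236 in untreated cells and 719 ± 68.4 in lung and did not pass (0.30 in both). Kat2a, a histone acetyltransferase gene, rose by 1.23 in antibody-treated and 1.17 in untreated cells, and Fbxw7, which marks cleaved Notch for destruction, changed by -1.44 in antibody-treated and -1.51 in untreated cells. Rbpjl, a relative of Rbpj best known from pancreas, changed by -2.67 in antibody-treated and -2.65 in untreated cells. Rbpj was 1 of 6 nuclear genes of 9 tested that did not pass, and Maml1 was another.

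Among corepressors, Hdac2 rose by 1.67 in antibody-treated and 1.63 in untreated cells and the Groucho-related genes Tle1 (-2.25 antibody-treated, -2.40 untreated) and Tle4 (-2.13 antibody-treated, -2.30 untreated) fell, with 7 of 10 not passing. Of 13 ubiquitin, endocytosis and secreted regulators 4 fell and 0 rose. They were Egfl7, a secreted protein of endothelium (-4.69 antibody-treated, -5.24 untreated), Dtx1 (-2.66 antibody-treated, -2.57 untreated), the Notch antagonist gene Numb (-2.58 antibody-treated, -2.52 untreated) and Dtx3l (-1.77 in both). Numb averaged 207 ± 10.4 in antibody-treated cells, 217 ± 6.94 in untreated cells (SD, n = 3 each) and 1465 ± 154 in lung (SD, n = 16). Mib1 and Itch, ubiquitin ligase genes acting on ligands and receptors, did not pass.

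Further ligand-like and target genes also went both ways. Dlk2 (1.32 antibody-treated, 1.37 untreated) and Dner (1.02 antibody-treated, 1.17 untreated), which encode atypical ligands, rose, from lung means of 78.8 and 18.3. The microfibril genes Mfap5 (-4.50 antibody-treated, -4.69 untreated) and Mfap2 (-4.17 antibody-treated, -4.22 untreated), whose proteins can bind Notch ligands or receptors but chiefly build elastic fibres, fell. Of the 11 other targets tested, Bhlhe40 rose by 1.65 in antibody-treated and 1.74 in untreated cells. Heyl (-2.67 antibody-treated, -2.75 untreated), Hey2 (-1.995 antibody-treated, -1.90 untreated) and Hes7 (-1.68 antibody-treated, -1.54 untreated) fell. Hes5 passed in untreated cells (1.02) and missed 2-fold in antibody-treated cells (0.97), at a mean of at most 47.3. Nrarp, a feedback inhibitor induced by Notch, averaged 882 ± 179 in antibody-treated cells, 742 ± 242 in untreated cells (SD, n = 3 each) and 983 ± 196 in lung (SD, n = 16) and did not pass. Bhlhe40 and the Id genes in this list also respond to other pathways.

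**Figure D4:**
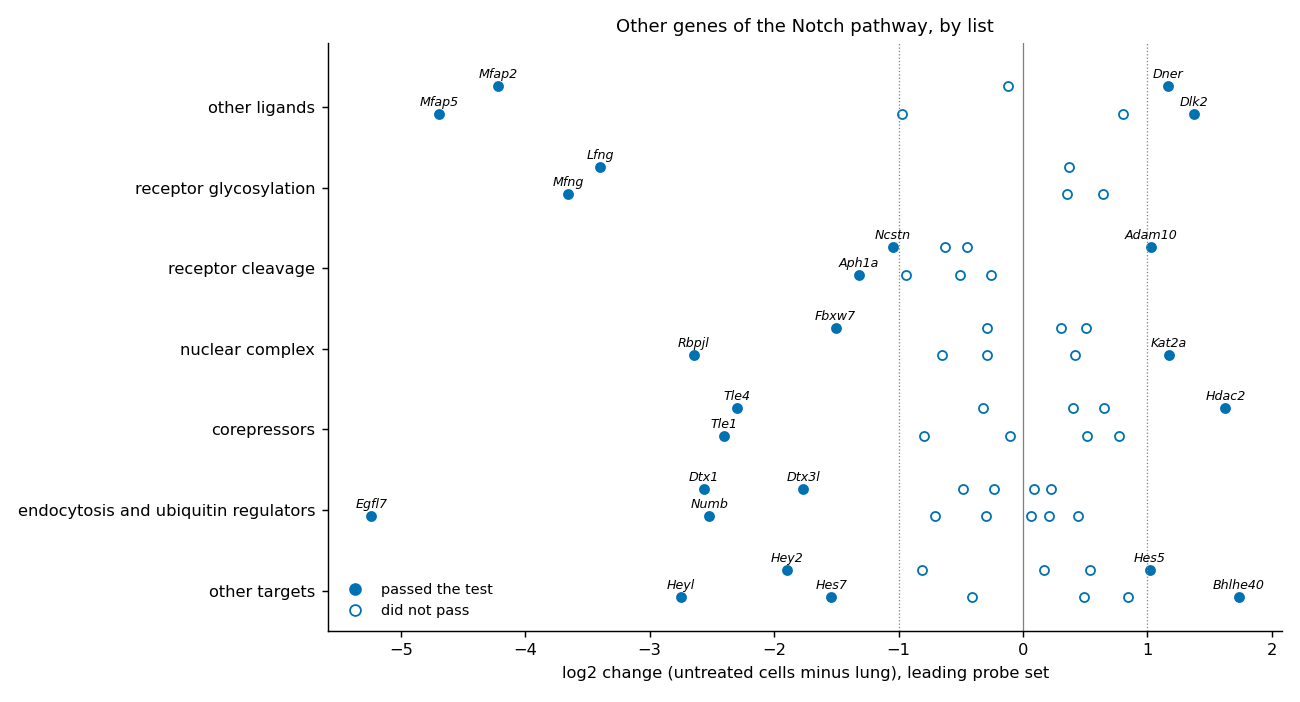
Log2 change of 63 other pathway genes in untreated cells relative to lung (horizontal axis), by list (rows), on the brightest probe set of each; filled and named points passed the test and dotted lines mark 2-fold. Egfl7 lies lowest at -5.24 and Bhlhe40 highest at 1.74.

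The genes whose profile over the 22 arrays was most like that of a member were found by the root mean square difference of mean-centred log2 values, among 15382 genes. For Notch4 they were the laminin gene Lama3 (0.18), Mtus1 (0.20) and the tensin gene Tns1 (0.21). For Notch1 they were the transcription factor gene Zeb1 (0.17), the BMP receptor gene Bmpr2 (0.17) and the Wnt receptor gene Fzd4 (0.18). For Hes1 they were 2310011J03Rik (0.12), Tiam2 (0.13) and Mrps30 (0.13), and for Hey1 Tmeff2 (0.20), Wscd2 (0.25) and Trim37 (0.25). For Dll1 no gene came closer than Aard (0.31). Cell and lung arrays both enter this measure.

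Antibody-treated against untreated cells asked whether 48 h of anti-EpCAM antibody altered these transcripts in the sorted fraction. No member changed past the test. Of the 14 probe sets bright enough in cells, 0 passed by limma at an adjusted p under 0.05, while 0.0109% of all tested probe sets (3 of 27499) passed. At an unadjusted p under 0.05 there was 1 member set, with 331 among all sets. It was the dimmer Notch3 set 1421964_at, with 34.2, 29.2 and 45.7 in antibody-treated cells and 18.9, 27.8 and 19.7 in untreated cells, so that all 3 treated arrays were above all 3 untreated ones. In this comparison 1.53% of all tested sets lay apart in this direction. Its difference was 0.50 (95% interval 0.09 to 0.90; limma adjusted p = 0.99992), and the brighter Notch3 set differed by -0.03 (95% interval -0.44 to 0.39).

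The second Notch1 set, 1418633_at, differed by 0.44 (95% interval -0.08 to 0.95), with overlapping groups and a difference above that of 98.6% of all tested sets, while the brightest Notch1 set differed by 0.16. The brightest sets of Notch1, Notch2, Jag1, Jag2, Dll4 and Hes1 differed by -0.11 to 0.16, and the dimmer sets of Notch2 and Jag1 by -0.23 to -0.01. Hes1 averaged 1099 ± 101 in antibody-treated and 1131 ± 151 in untreated cells (SD, n = 3 each), a difference of -0.01 (95% interval -0.31 to 0.30). Hey1 averaged 130 ± 50.4 in antibody-treated and 132 ± 71.7 in untreated cells (SD, n = 3 each), a difference of 0.02 with a wide interval of -0.75 to 0.80. On the scale used, the intervals of 13 of the 14 sets lay within 2-fold on either side. The exception was Dll1, with a difference of 0.52 (95% interval -0.19 to 1.22). Its intensities of 58.4, 34.5 and 27.0 in antibody-treated and 14.5, 16.7 and 43.3 in untreated cells overlapped. This scale understates changes of dim sets, so the count does not bound their change in intensity. With an offset of 1 the differences were 0.71 for Notch3 1421964_at and 0.51 for Notch1 1418633_at, against 0.50 and 0.44 as reported. With an offset of 64 they were 0.255 and 0.297. Intervals at these offsets are not given here. Of 53 other pathway genes tested, 0 passed (-0.23 to 0.55). The 3 Notch4 sets, 1 Dll4 set and 1 Jag2 set were too dim in both cell groups to be tested. With 3 arrays a group, a difference that misses the threshold does not show that the groups were alike.

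**Figure D5:**
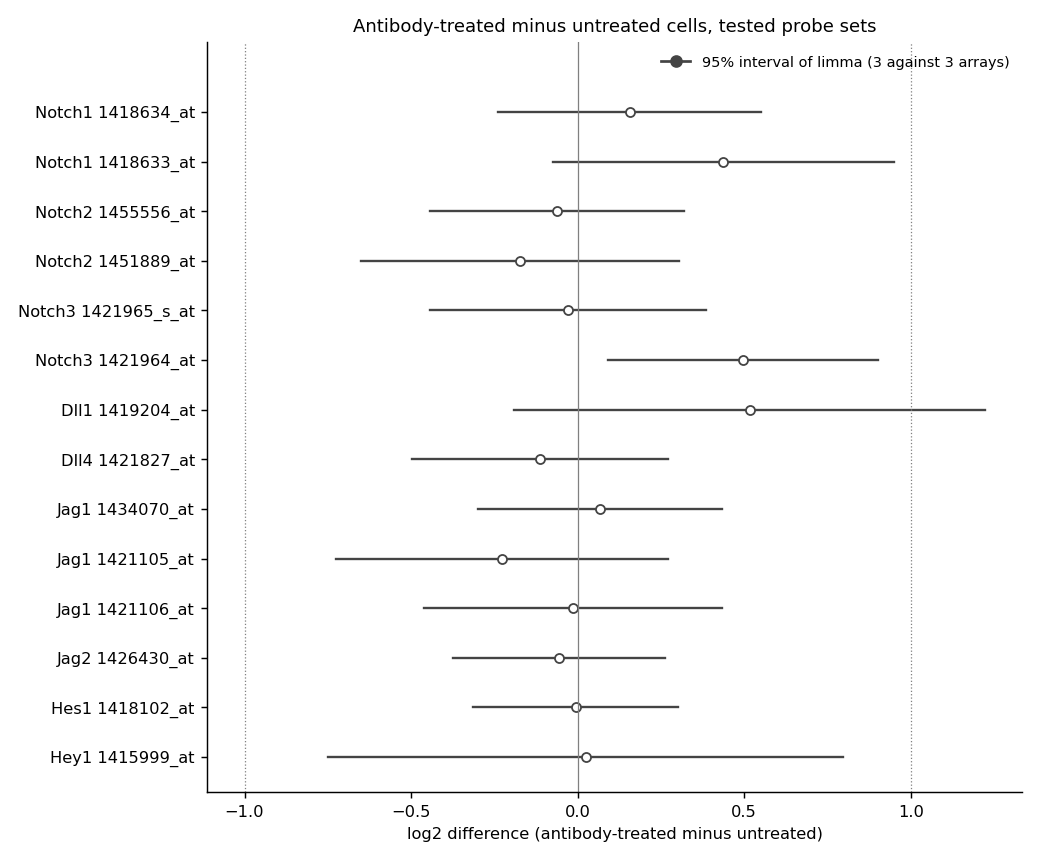
Log2 difference of each tested member probe set (rows) between antibody-treated and untreated cells, with limma's 95% interval (3 against 3 arrays); dotted lines mark 2-fold. Of the 14 intervals, 13 include 0 and the Dll1 interval reaches past 2-fold.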

How the data were processed

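Total RNA was labelled with biotin and hybridised to 1-colour Affymetrix mouse arrays, per the labels' protocols. The authors deposited 1 value table of linear intensity values, computed with PLIER according to the submitters' processing notes. Its version and settings are not given in the sources used here.

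Of 45101 probe sets, 64 controls were left out of the tests. Among the rest, 34945 carried 1 gene symbol in the platform annotation, 932 several and 9160 none. Intensities were quantile normalized as log2(intensity + 16) and fitted with limma 3.58.1 in R 4.3.3 (lmFit, eBayes with a variance trend). A probe set was tested if at least 3 compared arrays placed it above their own 40th percentile, with Benjamini-Hochberg adjustment over all of them. Antibody-treated against untreated cells used the 6 cell arrays, and cells against lung used all 22, with lung as the mean of the male and female groups. Printed intensities are the deposited ones. The brightest set of a gene is that with the highest mean over the 22 arrays. All member sets are named, as are the called genes with the largest changes of each pathway list. The number of arrays limits the precision, and correlations between replicates of a group were 0.968 to 0.993.

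The members, lists and tests were chosen with earlier results of these data known. The code was tested on simulated data. Alternatives in normalization, offset, filter, features, variance trend, weights, blocking and samples were run.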

Additional observations from a re-analysis of the deposited data

Results flagged for a closer look

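For Dll4, the male-labelled lung array 2 read 346 on set 1421827_at, while the other 7 male-labelled lung arrays lay between 200 and 251. The gap was 0.654 of the whole range of that group. This was 1 of 38 groups of 8 lung arrays checked, and chance alone flags about 1 in 20 groups. On the same array the second Dll4 set, 1421826_at, read 122, within the 85.1 to 199 seen over all lung arrays.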

How the results depend on the processing

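No result turned round among those that passed. For antibody-treated against untreated cells, 0 member sets passed under any setting run, while the count over all probe sets, 3 as reported, was 5 with an offset of 64, 6 with array weights, 10 with all 4 groups in the fit and 1 to 9 when each cell array was left out in turn. It was 1 without untreated replicate 3, 5 without untreated replicate 1, 7 without antibody-treated replicate 2 and 9 without untreated replicate 2. For antibody-treated cells against lung, 12754 probe sets and 11 member sets passed, with 7889 probe sets at an offset of 64, and 6226 probe sets and 7 member sets with 1 probe set per gene. For untreated cells against lung, 12944 and 12 passed, with 7993 at an offset of 64, and 6315 and 7 with 1 probe set per gene. Fewer features are tested in that last setting. Leaving out each cell array gave 11385 to 12762 probe sets and 11 to 12 member sets in the antibody-treated comparison, and 11390 to 12963 and 12 to 13 in the untreated one.

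Among single member sets, Notch1 1418633_at passed in antibody-treated cells without normalization (-1.08), with the replicate block (-1.03) and without antibody-treated replicate 3 (-1.02), and missed 2-fold in untreated cells at an offset of 64 (-0.91). Jag2 1426431_at missed it in antibody-treated cells at an offset of 64 (-0.94). Jag1 1421105_at passed in untreated cells at an offset of 1 (1.12) and without untreated replicate 1 (1.02). The causes were not tested. Cell samples with the same replicate number did not deviate alike from their group means, with correlations of deviations of 0.04, -0.17 and -0.01. This does not settle whether they were handled in pairs, which the titles do not say. The replicate block gave 3 calls between the cell groups, 12928 and 13052 against lung. Restricting lung to arrays 1 to 4 or 5 to 8, chosen after seeing the data, changed no member call. Dim sets, such as those of Dll4, Jag2 and Notch4 in cells, limit how well a fold can be sized.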
